A study of Mus musculus with 2 samples.

Results

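The annexins are proteins that bind acidic phospholipids of cell membranes when calcium rises, through a core of conserved repeats, while a variable N-terminal region sets the partners of each member. They take part in vesicle traffic and membrane repair, and annexin A1 also in the resolution of inflammation. Annexin A1 is known as a glucocorticoid-regulated protein. The family was followed here in mammary epithelial cells (MECs) through 10 genes, *Anxa1* to *Anxa9* and *Anxa11*, among 25810 genes listed with a symbol. They were taken by symbol, and the family was chosen because *Anxa1* was higher in the *Igfbp7*-/- library together with involution genes, so the values of that comparison are a description.

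RNA-Seq of poly(A) RNA was carried out on 2 libraries, 1 from wild type (WT) mice and 1 from mice lacking *Igfbp7*, an insulin-like growth factor binding protein, both on day 3 of lactation, in order to compare their transcriptomes at that stage. The cells came from inguinal glands, and cells carrying CD45, CD31 or Ter119 (markers of leukocytes, endothelium and erythroid cells) were removed with magnetic beads. The labels write CD35 for CD31 and give C57BL/6 as the genetic background, whereas the methods state that the knockout was made on CD1. The mutation is a germline loss of exon 1, made with Cre in embryonic stem cells, so that no cell type of the gland is spared. Age and the number of animals behind each library were not found in the labels or methods. With 1 library per genotype no difference has a replicate check. Intervals are 95% Clopper-Pearson intervals on read pairs that cover counting error only, and no test of the genotypes was made.

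The WT library comprised 34327854 reads and the *Igfbp7*-/- library 35016847, of which 82.4% and 72.3% lay on listed genes. *Igfbp7* itself had 5224 reads in WT and 37 in *Igfbp7*-/-. Rows of ribosomal RNA, which the methods say was filtered out, took 2.95% of the WT and 3.15% of the *Igfbp7*-/- total. Levels are given as deposited RPM (reads per 1000000 reads of the library total), and as RPKM (RPM per kilobase of gene length) where genes were compared with each other. Ratios of *Igfbp7*-/- to WT carry an added 0.1 RPM on both sides. They cover the 14026 genes that reached 1 RPM in either library, and a ratio of 1.5 times separated higher and lower genes from the rest.

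Of the 10 annexins, 3 were past 1.5 times on the higher side in *Igfbp7*-/- (*Anxa1*, *Anxa3* and *Anxa9*), 2 were past it on the lower side (*Anxa6* and *Anxa7*) and 5 lay within that range. All 10 passed the minimum of 1 RPM, *Anxa9* only through the *Igfbp7*-/- library. Among all genes kept, 21.4% were higher and 23.0% were lower. The median log2 ratio of the family was 0.34 and that of all genes was 0.03, with quartiles of -0.52 and 0.51. Scaling to the reads on listed genes moved every log2 ratio up by about the same amount, so that the median of all genes became 0.23. In that scaling *Anxa4* joined the higher genes (log2 ratio 0.59), *Anxa7* was no longer among the lower ones (-0.52) and *Anxa11* changed sign (0.11), while 62.7% of the genes past 1.5 times were higher against 48.2% before. In bulk RNA, fewer cells of a type and less RNA per cell cannot be told apart.

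**Figure D1:**
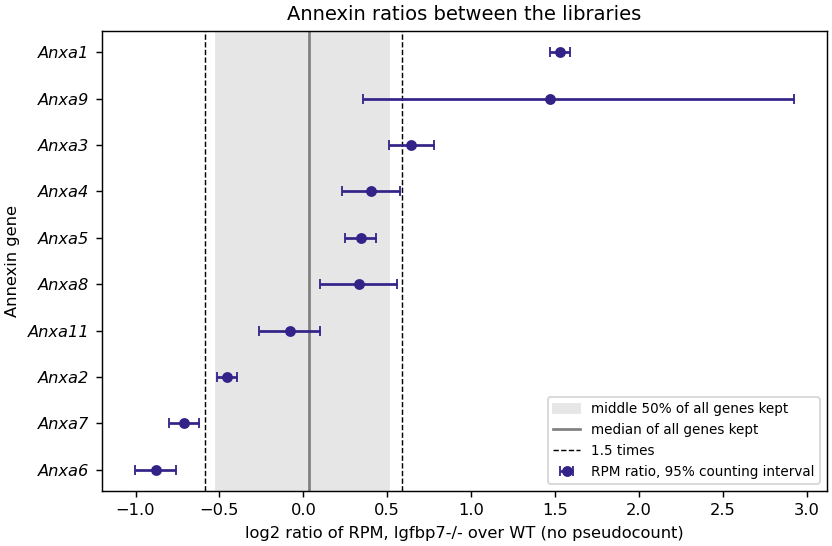
Log2 ratio of RPM between the *Igfbp7*-/- and WT libraries for each annexin (points, no pseudocount) with the 95% Clopper-Pearson counting interval (bars); the grey band holds the middle of all genes between the quartiles and the dashed lines mark 1.5 times. *Anxa1* stands furthest to the right at 1.53 with a narrow interval, *Anxa9* has the widest interval, and *Anxa6* and *Anxa7* lie left of the lower line.

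Sequences near the start sites of 4 members are shown, those of *Anxa1* and *Anxa9* (higher in *Igfbp7*-/-), *Anxa7* (lower) and *Anxa2* (the highest level in WT). Whether they bear on the direction of the ratios was not tested. They come from the 250 bases before the start that RefSeq gives on build GRCm38.p6, and were found without mismatch in build NCBIM37, the equivalent of mm9. For *Anxa1* that whole window lies in a 5′ untranslated exon of a longer GENCODE transcript, so only 30 bases around a TATA box are shown, at chr19:20465176-20465205 on the minus strand. For *Anxa2* the last 63 bases lie in an annotated exon and were left out, which leaves chr9:69301240-69301426 on the plus strand. *Anxa7* is shown at chr14:21299356-21299605 and *Anxa9* at chr3:95111115-95111364, both on the minus strand and outside annotated exons of their strand. Each is written 5′ to 3′ along the gene, with motif matches in capitals.

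Anxa1: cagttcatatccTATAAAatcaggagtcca
Anxa9: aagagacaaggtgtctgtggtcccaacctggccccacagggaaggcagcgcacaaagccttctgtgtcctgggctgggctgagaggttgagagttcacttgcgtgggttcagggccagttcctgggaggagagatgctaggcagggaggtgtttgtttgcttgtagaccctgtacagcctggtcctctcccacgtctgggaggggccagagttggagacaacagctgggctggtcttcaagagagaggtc
Anxa7: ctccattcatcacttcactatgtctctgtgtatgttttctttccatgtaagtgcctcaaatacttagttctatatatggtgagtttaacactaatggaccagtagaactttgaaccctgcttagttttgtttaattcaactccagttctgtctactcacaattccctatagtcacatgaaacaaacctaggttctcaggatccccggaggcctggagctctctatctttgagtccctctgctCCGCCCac
Anxa2: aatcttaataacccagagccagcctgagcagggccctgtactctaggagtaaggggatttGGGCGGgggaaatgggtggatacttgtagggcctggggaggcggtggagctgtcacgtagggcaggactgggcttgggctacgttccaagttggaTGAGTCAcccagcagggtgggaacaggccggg

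The 250 base windows were searched on both strands for 7 motifs. Of 32851 such windows of all genes, 12.4% held the TATA box as TATAAA. The CAAT box, searched as CCAAT, was in 33.8%, and the GC box, searched as GGGCGG, in 32.7%. The STAT motif TTCNNNGAA was in 7.02%, the C/EBP motif TTGCNNAA in 9.56% and the AP-1 motif TGANTCA in 6.75%. AGAACA, which is only a part of a full glucocorticoid receptor site, was in 16.1%.

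The *Anxa1* window held the TATA box shown, which starts 32 bases before the RefSeq start, and a C/EBP match 143 bases before it. The *Anxa2* window held a TATA box at 17 bases and GC boxes at 190, 48 and 24 bases, with an AP-1 match at 95 bases. The *Anxa7* window held a GC box at 8 bases, and none of the 7 motifs was found in that of *Anxa9*. No window was available for *Anxa3* (higher) and *Anxa6* (lower). Among the 8 members with a window, a TATA box was present in the 2 of highest level, *Anxa1* and *Anxa2*, whose ratios lay on opposite sides of 1. These TATA matches lie within annotated exons, that of *Anxa2* in the stretch left out of the sequence shown. *Anxa11* held 3 GC boxes, and *Anxa4*, *Anxa5* and *Anxa8* held none of the motifs. None of the matches overlapped another, and no binding was measured.

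*Anxa1* encodes annexin A1, which acts on formyl peptide receptors and dampens inflammation. Its position is chr19:20447918-20465434 on the minus strand. It had 180 RPM (6187 reads) in the WT library against 520 RPM (18206 reads) in *Igfbp7*-/-. The *Igfbp7*-/- level was 2.88-fold that of WT (interval 2.77 to 3.01), a log2 ratio of 1.53 (1.47 to 1.59). Of all genes kept, 3.57% had a ratio at least as large. The family was chosen because *Anxa1* was higher, so this rank is only a description. Under 12 alternative settings the log2 ratio stayed between 1.49 and 1.73.

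*Anxa2* encodes annexin A2, which forms a complex with S100A10 at the plasma membrane and binds plasminogen activators there. It spans 69301427 to 69339602 on the plus strand of chromosome 9. It had 314 RPM (10770 reads) in the WT library against 229 RPM (8013 reads) in *Igfbp7*-/-. The log2 ratio was -0.46 (-0.51 to -0.40), a difference below 1.5 times whose counting interval lay below a ratio of 1. Of the bases in its exons, 98 overlap exons of the antisense gene *Gm16144*, and whether the counting used strand is not given in the sources used here.

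*Anxa3*, also known as the lipocortin III gene, is found on the plus strand of chromosome 5 from 97222404 to 97274987. It had 42.9 RPM (1471 reads) in the WT library against 67.0 RPM (2345 reads) in *Igfbp7*-/-. The ratio was 1.56-fold, and its interval (1.42 to 1.71) contained the threshold of 1.5.

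*Anxa9* encodes an annexin whose calcium-binding residues are not conserved. Its position is chr3:95100018-95111098, minus strand. It had 0.495 RPM (17 reads) in the WT library against 1.37 RPM (48 reads) in *Igfbp7*-/-. It had the lowest level of the 10 in both libraries. The log2 ratio was 1.31 with the added 0.1 RPM and 1.47 without it (0.35 to 2.92), so the reads allow folds from 1.28 to 7.57. With a pseudocount of 1 RPM the log2 ratio was 0.66. Its exons share 71 bases with exons of *Fam63a* on the other strand.

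*Anxa6* encodes the largest annexin, in which the core is duplicated, and which is known for its link to cholesterol and caveolae. It occupies chr11:54792610-54846947 on the minus strand, and its longest coding transcript has 26 exons. It had 89.7 RPM (3080 reads) in the WT library against 48.7 RPM (1706 reads) in *Igfbp7*-/-. The WT level was 1.84-fold that of *Igfbp7*-/-, and the log2 ratio was -0.88. As *Igfbp7*-/- over WT, the interval ran from 0.499 to 0.591 times.

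*Anxa7* and *Anxa11* encode annexins with long N-terminal regions that bind the calcium sensor PDCD6. *Anxa7* (chr14:21274483-21299355, minus strand) stood at 152.5 RPM (5235 reads) in WT and at 93.2 RPM (3263 reads) in *Igfbp7*-/-. Its log2 ratio was -0.71 (-0.80 to -0.62). *Anxa11* (chr14:26661669-26706290, plus strand) stood at 29.8 RPM (1024 reads) in WT and at 28.2 RPM (988 reads) in *Igfbp7*-/-. Its log2 ratio was -0.08 (-0.26 to 0.10), an interval that holds a ratio of 1. The values of *Anxa7* thus lay further apart than those of *Anxa11*, by more than their counting intervals. These intervals leave out the uncertainty of the *Anxa11* count that is described next.

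The count of *Anxa11* is uncertain. When the transcript of each member was aligned to the NCBIM37 genome, *Anxa11* matched other places over stretches of at least 75 bases with at most 4% mismatches, the length of the longer read of a pair and the share that 3 mismatches make of it. There were 12 such matches, which covered 54.6% of the 2367 base transcript. All lay further along chromosome 14, in 2 sets, and the longest match of each set was 795 bases without mismatch, at 26845266 to 26846060 and 26984880 to 26985674. How reads with several places were counted is not given in the sources used here. The other 9 members had no such match. The mismatch limit was applied to each alignment as a whole, so similar stretches within less similar alignments, or shorter than 75 bases, were not counted.

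*Anxa4*, *Anxa5* and *Anxa8* had ratios close to each other. *Anxa5* (chr3:36347847-36374765, minus strand), the phosphatidylserine-binding annexin used to stain dying cells, stood at 101 RPM (3462 reads) in WT and at 128 RPM (4476 reads) in *Igfbp7*-/-, with a log2 ratio of 0.34 (0.25 to 0.43). *Anxa4* (chr6:86686834-86743578, minus strand), an epithelial annexin of secretory membranes, stood at 28.4 RPM (976 reads) and 37.6 RPM (1316 reads), with a log2 ratio of 0.40 (0.23 to 0.57). *Anxa8* (chr14:34899167-34913757, plus strand), an annexin of late endosomes, stood at 16.6 RPM (571 reads) and 20.9 RPM (733 reads), with a log2 ratio of 0.33 (0.10 to 0.56). The 3 ratios were above 1 and below 1.5 times, and their intervals overlapped each other. Of the other annexins, *Anxa13* had 4 reads in each library, and *Anxa10* had 0. The 95% Poisson interval on read pairs for *Anxa10* had an upper end of 0.215 RPM for the WT library and 0.211 RPM for the *Igfbp7*-/- library.

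Levels were compared between members per length. In WT the order by RPKM was *Anxa2* (228), *Anxa1* (129), *Anxa5* (58.0), *Anxa7* (51.4), *Anxa6* (33.7), *Anxa3* (26.5), *Anxa4* (14.2), *Anxa11* (12.4), *Anxa8* (8.80) and *Anxa9* (0.261). In *Igfbp7*-/- it was *Anxa1* (373), *Anxa2* (167), *Anxa5* (73.5), *Anxa3* (41.4), *Anxa7* (31.4), *Anxa4* (18.8), *Anxa6* (18.3), *Anxa11* (11.7), *Anxa8* (11.1) and *Anxa9* (0.723). *Anxa1* and *Anxa2* exchanged places, *Anxa3* moved ahead of *Anxa7* and *Anxa6*, and *Anxa6* moved behind *Anxa4*. By counting error alone, the neighbours whose intervals overlapped were *Anxa4* and *Anxa11* in WT, and *Anxa4* and *Anxa6* as well as *Anxa11* and *Anxa8* in *Igfbp7*-/-. The order rests on the gene lengths chosen by the authors, from 1374 bases for *Anxa2* to 2965 for *Anxa7*.

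**Figure D2:**
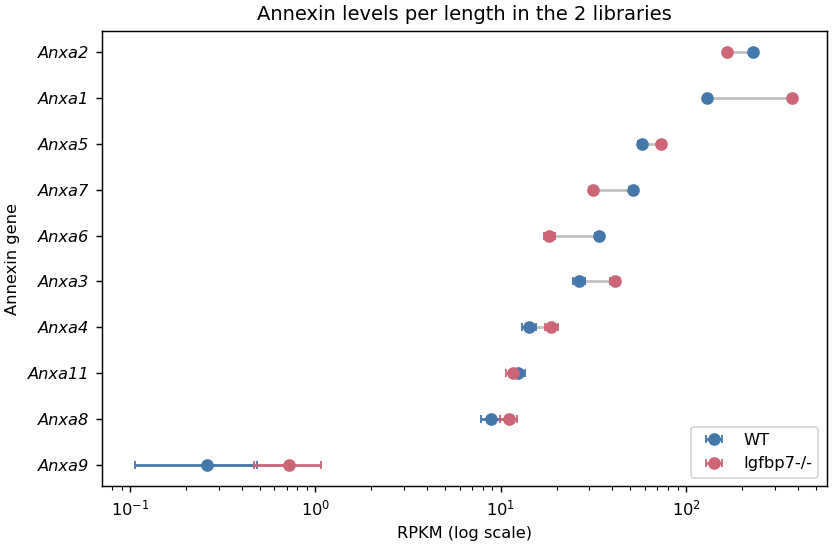
RPKM of the 10 annexins on a log scale in the WT (blue) and *Igfbp7*-/- (red) libraries, ordered by the WT level, with exact 95% Poisson intervals on read pairs. *Anxa1* moves from 129 to 373 RPKM past *Anxa2*, which moves from 228 to 167.

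The family as a whole summed to 955 RPM in the WT library against 1174 RPM in the *Igfbp7*-/- library. The log2 ratio of the sums was 0.30 (0.27 to 0.33). Without *Anxa1* the sum was 775 RPM in WT and 654 RPM in *Igfbp7*-/-, a log2 ratio of -0.25, so that 1 gene set the direction of the sum. Summed RPKM was 563 in WT and 746 in *Igfbp7*-/-. *Anxa1* made up 129 of the 563 RPKM in WT (23.0%) and 373 of the 746 RPKM in *Igfbp7*-/-, whereas *Anxa2* made up 40.6% and 22.3%. Per length, *Anxa1* stood at 0.566 times the level of *Anxa2* in WT and at 2.24 times in *Igfbp7*-/-. This ratio within a library does not depend on the scaling of the libraries.

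**Figure D3:**
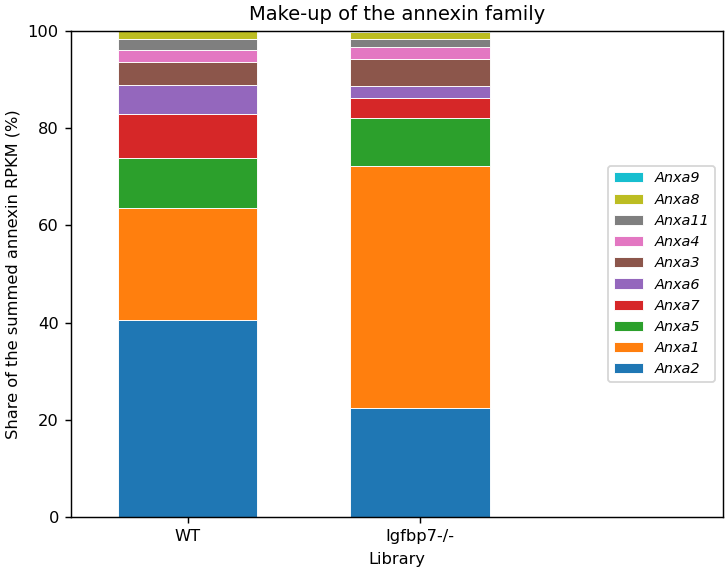
Share of each annexin in the summed RPKM of the 10 members, as stacked bars from 0 to 100% for the WT and *Igfbp7*-/- libraries. *Anxa2* is the largest block in WT (40.6%) and *Anxa1* in *Igfbp7*-/- (373 of 746 RPKM), and *Anxa9* is too small to be seen.

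Genes that work with annexins were described from lists written by function, with earlier results of these data known. Counts in these lists stand beside 21.4% higher and 23.0% lower among all genes kept. Of 7 binding partners of annexins, 0 were past 1.5 times on the higher side and 2 on the lower side, with a median log2 ratio of -0.48. The summed level of the list went the other way, from 4303 RPM in WT to 5211 RPM in *Igfbp7*-/- (log2 ratio 0.28). Its most abundant member was *Ahnak*, which encodes a large scaffold protein bound by the annexin A2 complex, at 3614 RPM in WT against 4752 RPM (0.39, interval 0.38 to 0.41). Without replicates no test stands behind these counts. *S100a10*, whose product holds annexin A2 at the membrane, had 333 RPM in WT and 183 RPM in *Igfbp7*-/- (-0.86, interval -0.93 to -0.80), and *S100a4* was the other lower gene (3.90 and 1.77 RPM). *S100a11*, the known partner of annexin A1, was named after its value had been seen and had 190 RPM in WT and 143 RPM in *Igfbp7*-/- (-0.42).

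Of 8 genes around annexin A1 and glucocorticoid response, 7 passed the minimum, of which 3 were higher and 2 lower, with a median log2 ratio of 0.33. The higher genes were *Trpm7*, which encodes a channel kinase that phosphorylates annexin A1 (71.2 RPM in WT, 138 RPM in *Igfbp7*-/-), and the glucocorticoid-induced genes *Tsc22d3* (138 and 215 RPM) and *Fkbp5* (123 and 191 RPM). The lower genes were the formyl peptide receptor genes *Fpr1* (2.65 and 1.40 RPM) and *Fpr2* (4.63 and 2.08 RPM), both weakly expressed.

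Of 15 membrane repair genes, 14 passed the minimum, of which 1 was higher and 6 were lower, with a median log2 ratio of -0.23. Among all genes kept, the shares were 21.4% higher and 23.0% lower. The higher gene was *Myof*, which encodes the membrane fusion protein myoferlin (77.9 RPM in WT against 180 RPM, log2 ratio 1.21). The lower genes furthest from WT were *Cav1*, for the caveolar coat protein (985 and 303 RPM, -1.70), *Ehd2*, for an ATPase at the neck of caveolae (192 and 87.6 RPM, -1.13), and *Smpd1*, for acid sphingomyelinase (14.7 and 8.80 RPM, -0.73).

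Other proteins that bind phospholipids in a calcium-dependent way, the copines, extended synaptotagmins and synaptotagmin-like proteins, gave 2 higher and 4 lower genes among the 13 of 17 that passed the minimum, with a median log2 ratio of -0.31. *Esyt3* (17.6 RPM in WT, 51.2 RPM in *Igfbp7*-/-) and *Esyt2* (177 and 287 RPM), which tether the endoplasmic reticulum to the plasma membrane, were the higher genes, and *Cpne8* (60.3 and 32.1 RPM) was the lower gene of highest level. The summed level of that list had a log2 ratio of 0.35, opposite in sign to its median. Of 12 scramblases and flippases, which place phosphatidylserine on one side of the membrane or the other, 2 were higher and 1 was lower (median 0.07). These were *Atp8b1* (32.3 and 76.0 RPM), *Plscr1* (145 and 283 RPM) and, lower, *Atp8a1* (21.5 and 14.0 RPM). Of 10 SNARE and SNARE-binding genes found among 12 listed, 1 was higher, *Vamp8* (23.8 and 43.0 RPM), and 1 was lower, *Vamp4* (9.50 and 4.17 RPM), with a median of -0.15 and a log2 ratio of the sums of 0.06.

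The cells of the 2 libraries also differed in their markers, and the part of these differences in the annexin values was not tested. Marker counts stand beside the same shares of all genes kept, 21.4% higher and 23.0% lower. Luminal epithelial markers were higher in *Igfbp7*-/- for 3 of 5 genes, with a summed level of 1311 RPM in WT and 3191 RPM in *Igfbp7*-/-. Among them *Krt8* had a log2 ratio of 1.56 and *Krt18* one of 2.23, while *Epcam* (0.51) and *Cdh1* (0.38) stayed within 1.5 times. Basal and myoepithelial markers were lower for 5 of 6 genes (2942 and 958 RPM summed), secretory alveolar markers for 4 of 6 (87603 and 32513 RPM) and fibroblast markers for 4 of 6 (9060 and 4582 RPM). The members within 1.5 times were the basal *Oxtr* (log2 ratio 0.21), the secretory *Btn1a1* (-0.03) and *Xdh* (0.34), and the fibroblast *Pdgfra* (0.45) and *Dcn* (-0.42). The members of a marker list thus did not all shift alike.

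Marker RNA of cell types that the beads were meant to remove was still detected. By flow cytometry, the methods report that only a small share of the cells still expressed lineage markers after the separation. Endothelial markers were lower for 4 of 5 genes (1055 RPM summed in WT, 352 RPM in *Igfbp7*-/-), and *Pecam1*, the gene of CD31, had 323 RPM in WT and 88.9 RPM in *Igfbp7*-/-. Macrophage markers were lower for 6 of 7 genes, although their sum was 621 RPM in WT and 733 RPM in *Igfbp7*-/-. *Cd14*, the most abundant of them and the 1 that was not lower, had 470 RPM in the WT library against 677 RPM. The sum thus followed *Cd14*, whereas *Ptprc*, the gene of CD45, had 43.5 RPM in WT and 18.1 RPM in *Igfbp7*-/-. Neutrophils, which are rich in annexin A1, left 3 of 4 markers lower (41.0 and 31.3 RPM summed). *S100a8*, the most abundant of the neutrophil markers, was not lower, at 17.3 RPM in WT and 21.2 RPM in *Igfbp7*-/-. Its log2 ratio was 0.29 (0.06 to 0.51). *Ly6g*, a defining marker, had 0 reads in WT and 1 in *Igfbp7*-/-. Whether neutrophils contributed to the *Anxa1* values was not tested. Lymphocyte markers were lower for 5 of 5 genes (19.4 and 4.06 RPM). Erythroid markers gave 0 higher and 0 lower genes among 3 that passed (889 and 997 RPM). Adipocytes were not a target of the beads. Their markers were at 24.8 RPM in WT and 19.5 RPM in *Igfbp7*-/-, with 2 of 3 lower and *Lep* higher.

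**Figure D4:**
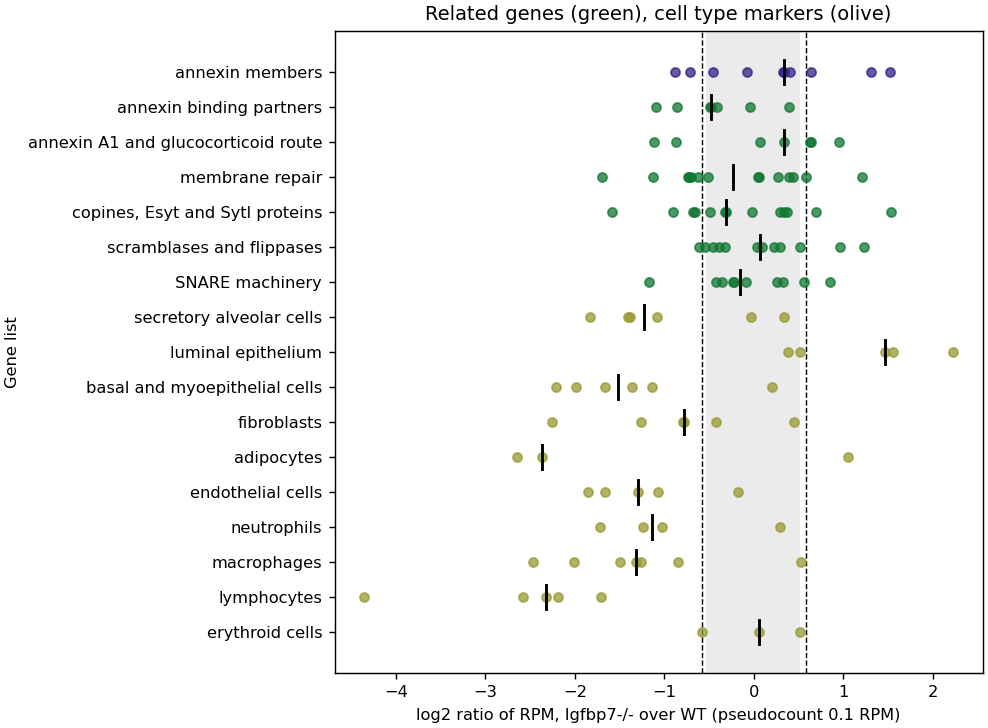
Log2 ratio of RPM (0.1 RPM added) for each gene that passed the minimum, by list: the annexins (dark blue), related genes (green) and cell type markers (olive), with black ticks at list medians, a grey band between the quartiles of all genes and dashed lines at 1.5 times. The annexins spread from -0.88 to 1.53 around a median of 0.34.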

How the data were processed

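Poly(A) RNA of lineage-depleted MECs was sequenced by the authors on a SOLiD instrument as paired-end reads, 1 library per genotype. Per their methods, reads were mapped with a Bowtie pipeline in GeneSifter, with at most 3 mismatches. The methods name a human reference, but the submitters' processing notes list mm9, Bowtie 0.12.3 and SAMtools 0.1.15, and the files list mouse genes. Each file deposited by the authors gives an unnormalized count of reads for every gene. The deposited RPM is that count per 1000000 reads of a library total (34327854 reads in WT, 35016847 in *Igfbp7*-/-) that exceeds the listed reads (28276004 and 25323803), and the deposited RPKM divides RPM by a gene length of their choice. Unlisted reads thus lower every RPM of a library. Rows without a symbol (50 per file, 0.0408% and 0.0484% of reads) were left out.

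Members and gene lists were chosen with earlier results of these data known. Groups followed the genotype labels. Log2 ratios used the deposited RPM plus 0.1 RPM; intervals used counts divided by 2, because 75.8% (WT) and 74.1% (*Igfbp7*-/-) of counts from 1 to 20 were even, and leave out the added 0.1 RPM. All members were named. In each pathway list, genes that reached 10 RPM in a library and passed 1.5 times were named, at most the 4 furthest from a log2 ratio of 0, and in marker lists those that bear on the presence of the cell type. *S100a4*, *S100a11*, *Ahnak*, *Fpr1*, *Fpr2* and *Vamp4* lie outside that rule and were named after their values were seen. Alternatives changed the pseudocount, minimum, unit, scaling (edgeR 4.0.16 TMM and DESeq2 1.42.0 size factors among them) and ratio threshold. Scripts were tested on simulated data. Gene positions came from GENCODE for NCBIM37, and other genomic matches from blastn 2.17.0. Python 3.11.15 with scipy 1.17.1 was used. With 1 library per genotype, no edgeR or DESeq2 test was run.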

Additional observations from a re-analysis of the deposited data

How the results depend on the processing

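The 3 higher members stayed at 3, or 2 where *Anxa9* failed a minimum (deposited RPKM, at least 10 RPM in one library, at least 1 RPM in both) or a ratio of 2 excluded *Anxa3*, and rose to 4 when counts were scaled to the reads on listed genes, with or without ribosomal and small nuclear RNA (the latter added after the data were seen). The 2 lower members fell to 1 under both scalings and to 0 at a ratio of 2. The family median, 0.34, became 0.52 and 0.53 under these scalings. The log2 ratio of the summed RPM, 0.30, became 0.48 and 0.50, 0.34 without the 20 genes of highest RPM, and 0.26 when centred on the median of all genes. By construction both scalings add a constant, because fewer *Igfbp7*-/- reads lay on listed genes. Ordering by RPM in place of RPKM changed the rank of 4 members in each library. No member called higher or lower changed sign. No paired analysis and no omission of a replicate was possible because each genotype had 1 library. Depth limits *Anxa9* (17 and 48 reads), *Anxa13* and *Anxa10*.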
